A study of Caenorhabditis elegans with 4 samples.

Results

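Chromatin immunoprecipitation followed by sequencing (ChIP-seq) gave 707 called NFYA-1 regions on Caenorhabditis elegans chromosome III below 9 Mb, of 5320 in the whole combined peak list. These regions were chosen by position alone: the peak lies on III and its midpoint is below 9000000 in genome build WS180. The replicate 1 list held 409 of its 2907 peaks in the same window and the replicate 2 list 477 of its 3319. The window runs from the left end of the chromosome through the left arm and into the centre.

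The series holds 2 ChIP libraries and 2 input libraries, all from late embryos of the hermaphrodite strain OP404, grown at 20 °C. All 4 share the allele unc-119(ed3) III and the transgene wgIs404, which carries the fusion nfya-1::TY1-GFP-3xFLA together with unc-119(+), so no library comes from worms without the tagged protein. The strain was made by particle bombardment and outcrossed, and the antibody was raised against GFP, so the signal is that of the tagged protein in 1 strain. The replicates carry numbers, and the labels do not say whether they came from separate cultures. Peak lists of the input libraries and read counts were not analysed here, and the sequencing depth is therefore unknown.

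NFYA-1 is the C. elegans form of NF-YA, the subunit of the NF-Y complex that reads the CCAAT box, a short promoter element. NF-YB and NF-YC pair through histone-like folds, and NF-YA joins them to make the complete DNA-binding complex. In C. elegans, NF-Y is known to restrain the Hox gene egl-5. The Hox genes lin-39, ceh-13, mab-5 and egl-5 lie in the centre of chromosome III. Worm autosomes have gene-dense centres and arms that are poorer in genes, richer in repeats and more often recombined. Gene positions in build WS180 were not used here, so the regions below are named by position, no region is assigned to a gene, and no bases are shown.

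Strength is given as −log10 of the q-value (the authors' p-value corrected for multiple testing), as deposited for each peak. It grows with sequencing depth as well as with enrichment, and it is used to order peaks within a list or to set overlapping intervals side by side. A peak counts as found in another list if it overlaps a peak there by at least 1 bp. Intervals in parentheses are 95% exact intervals and cover counting error over peaks only. Combined peaks per 100 kb of the window had a mean of 7.86 and a variance of 16.3. Intervals of density ratios do not allow for this extra spread and are too narrow, so a limit close to 1 decides nothing. With 2 ChIP libraries of 1 group no test over samples was possible, and peaks are not replicates, so the comparisons below are descriptions.

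The strongest NFYA-1 regions of the window were picked by strength, so their excess over its typical peak is fixed by that choice. The middle 50% of the 707 combined peaks had a −log10 q between 5.34 and 16.6, with a median of 8.51. The leading combined peak reached 233 and the strongest replicate peak 309. Among combined peaks shared by the replicates, the 10 strongest measured from 463 to 1596 bp. Their median of 822 bp compares with 327 bp for all combined peaks of the window. Width rose with strength over all these combined peaks (Spearman's rho 0.689), so wide intervals among the strongest are not a separate trait. Of these 10, 6 lay below 4 Mb and 4 between 4 and 9 Mb.

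The strongest combined peak, from 1618209 to 1619804, was also the strongest combined peak of the genome. Its −log10 q was 233 in the combined list, 197 in replicate 1 and 202 in replicate 2. The combined peaks on either side were weak, 1393 bp to the left with a −log10 q of 4.02 and 2031 bp to the right with 3.93. It was therefore a single strong interval between faint ones.

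The second, from 4281891 to 4282686, had a −log10 q of 147 in the combined list, 93.7 in replicate 1 and 66.8 in replicate 2. It was the middle of a run of 3 peaks. The peak 619 bp to its left had 14.5 and was found in both replicates, and the peak 461 bp to its right had 5.86 and was found in neither. Replicate 1 gave the larger value for this region, the widest difference in −log10 q between the replicates among the 10.

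The next peak in order of strength and the sixth were neighbours, separated by 463 bp. The left one, from 8799668 to 8800888, had a −log10 q of 123 in the combined list, 78.04 in replicate 1 and 54.4 in replicate 2. The right one, from 8801352 to 8802653, had 109 in the combined list, 58.3 in replicate 1 and 66.4 in replicate 2. The order of this pair thus differed between the replicates.

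A further run of 4 peaks lay to their left, from 8794152 to 8797688. Its strongest member, from 8795434 to 8796157, had a −log10 q of 65.2 in the combined list, 36.8 in replicate 1 and 36.4 in replicate 2. The run and the strong pair together made 6 combined peaks in 8502 bp. Replicate 1 and replicate 2 each held 5 intervals there. The combined interval that they lacked was the weakest, with a −log10 q of 3.57, and was found in neither replicate.

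Among the 10 strongest, a pair of peaks was the narrowest, though both were wider than the window's upper quartile of 441 bp. The peak from 3867323 to 3867795, 473 bp wide, had a −log10 q of 117 in the combined list, 72.3 in replicate 1 and 80.2 in replicate 2. The peak from 8528836 to 8529298, 463 bp wide, had 111 in the combined list, 75.5 in replicate 1 and 64.3 in replicate 2. The second of these was isolated, with the nearest combined peaks 16199 bp to the left and 27477 bp to the right.

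The remaining 4 of the 10 had a combined −log10 q between 80.2 and 89.0. The peak from 1920939 to 1921786 had 89.0 in the combined list, 39.3 in replicate 1 and 45.1 in replicate 2. It lay 1573 bp left of a run of 3 peaks, from 1923360 to 1926918, with combined values of 36.3, 61.0 and 31.4. All 3 members of that run were found in both replicates, and it was the only run of 3 or more of which this was true.

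The peak from 3801213 to 3801915 had a −log10 q of 85.6 in the combined list, 37.6 in replicate 1 and 44.8 in replicate 2. The peak from 1436609 to 1437126 had 80.9 in the combined list, 46.5 in replicate 1 and 42.2 in replicate 2. Its right-hand neighbour was 58797 bp away.

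The last of the 10, from 2863640 to 2865022, was 1 interval of 1383 bp in the combined list with a −log10 q of 80.2. Replicate 2 had a single interval there of 1271 bp with a −log10 q of 36.5. Replicate 1 had 2 intervals, the stronger of which covered 487 bp with 24.2. The intervals therefore did not divide this region alike in the replicates.

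The widest combined peak of the window, from 833564 to 836413, spanned 2850 bp and had a −log10 q of 67.4. Each replicate broke it into 2 intervals. The stronger was 1595 bp wide with 25.2 in replicate 1, and 587 bp wide with 16.5 in replicate 2. The next widest were the peaks at 1618209 and 2863640 described above. In the whole window, 2 combined peaks overlapped 2 replicate 1 peaks and 1 overlapped 2 replicate 2 peaks. Over the whole series, 23 combined peaks overlapped 2 or more replicate 1 peaks and 27 overlapped 2 or more replicate 2 peaks.

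The strongest NFYA-1 interval of both replicates lay in the window and had no counterpart in the combined list. It ran from 8416839 to 8418066 in replicate 1, with a −log10 q of 309, and from 8416818 to 8418100 in replicate 2, with 278. The next strongest interval of the window was the one at 1618483 in replicate 1, 112 units of −log10 q lower, and the one at 1618309 in replicate 2, 75.5 units lower. In the combined list the nearest interval to the left ended at 8412342 and the nearest to the right began at 8418842. This right-hand interval began 775 bp beyond the end of the replicate 1 interval and 741 bp beyond that of replicate 2.

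The combined list did hold intervals around the missing one. Within 25 kb on each side of its centre the combined list held 5 intervals, replicate 1 held 3 and replicate 2 held 4. The replicate counts include the strongest interval itself. The combined interval from 8411866 to 8412342 had a −log10 q of 35.5, with 20.9 in replicate 1 and 16.2 in replicate 2. That from 8424921 to 8425446 had 33.7, with 26.7 in replicate 1 and 15.1 in replicate 2. The weak combined interval nearest to the missing one, from 8418842 to 8419227, had 4.52 and overlapped no replicate peak.

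**Figure D1:**
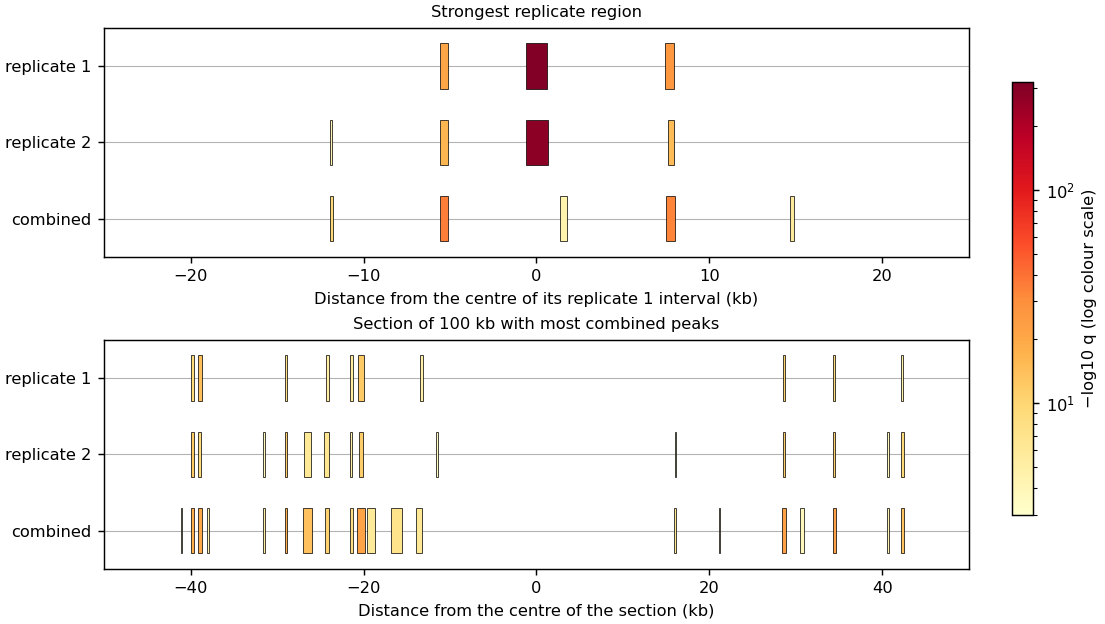
Peak intervals in the 3 lists, replicate 1 at the top, coloured by −log10 q on a log colour scale, against distance in kb. In the upper panel, around the strongest replicate region, replicate 1 and replicate 2 hold a dark interval at 0 (309 and 278) that the combined row lacks. The lower panel shows the 100 kb section with most combined peaks, 20, in 2 groups with 29.2 kb between them.

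The other replicate intervals of the window that the combined list lacked were far weaker than the strongest one. In replicate 1, 406 of 409 peaks overlapped a combined peak, where the share over the whole list was 99.2%. Of the 3 that did not, the 2 apart from the strongest had a −log10 q of 3.91 and 3.64. In replicate 2 it was 463 of 477, where the share over the whole list was 97.8%. The 13 unmatched ones apart from the strongest had values from 3.56 to 7.09. The highest, from 3396031 to 3396431, lay above the window's replicate 2 median of 6.74, and the next had 4.71. None of these 15 intervals overlapped a peak of the other replicate.

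Within the window the replicate lists overlapped for the most part. In replicate 1, 355 of 409 peaks overlapped a replicate 2 peak, or 86.8% (83.1 to 89.9) where the whole list had 85.7%. In replicate 2, 354 of 477 overlapped a replicate 1 peak, or 74.2% (70.04 to 78.1) where the whole list had 75.0%. Both shares lay close to those of the whole lists. The 160 strongest replicate 1 peaks and the 184 strongest replicate 2 peaks of the window were all matched.

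The first unmatched peak of replicate 1, from 8126900 to 8127280, had a q of 4.49e-10. The first unmatched peak of replicate 2, from 5106921 to 5107477, had a q of 8.96e-10. Matched peaks had a median −log10 q of 8.73 and a median width of 336 bp in replicate 1, against 4.42 and 286 bp for unmatched ones. In replicate 2 the medians were 9.27 and 335 bp for matched peaks, against 4.54 and 226 bp. A peak near the threshold of 1 list can miss that of the other, so weak peaks found once cannot be called absent from the other replicate.

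Where the replicates matched, they placed the peak at almost the same position. Over the 355 matched pairs the centres were a median of 25 bp apart (quartiles 11 and 48 bp), and 324 pairs had centres within 100 bp. The overlap covered a median of 81.2% of the joint length of a pair. Over all 2492 pairs of the series the same medians were 25 bp and 82.4%. Replicate 1 intervals had a median width of 336 bp and replicate 2 intervals 335 bp.

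The strength of matched peaks was also similar in the replicates. As the log2 of replicate 1 over replicate 2 −log10 q, the median pair had a ratio of -0.04 (quartiles -0.34 and 0.26), and 163 of the 355 pairs were stronger in replicate 1. Over all pairs the median was -0.01. Across the 355 pairs of the window Spearman's rho was 0.864 and Pearson's r on the log scale 0.912. This is a description across peaks, which share the 2 libraries and their depth.

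**Figure D2:**
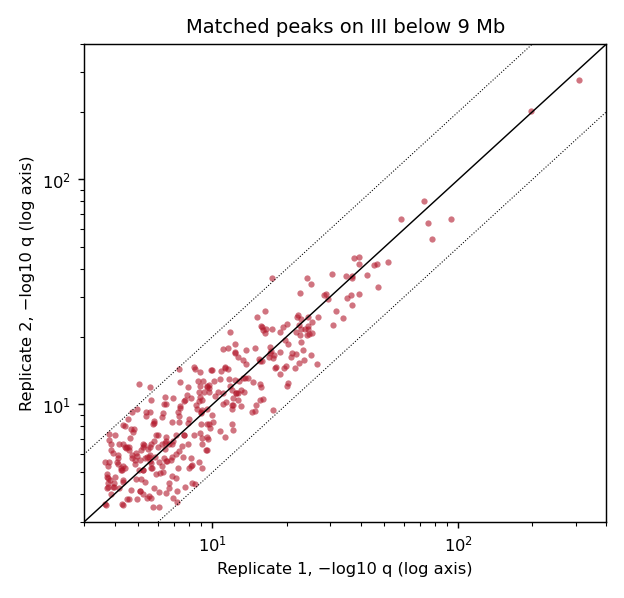
Each point is 1 of 355 matched peaks of III below 9 Mb, with replicate 1 −log10 q on the x axis and replicate 2 −log10 q on the y axis, both log axes. The solid line marks equal values and the dotted lines a ratio of 2. The points lie along the line of equal values, from the weakest pairs to the strongest at 309 in replicate 1 and 278 in replicate 2.

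Among the 176 pairs with a −log10 q of at least 10 in 1 replicate, only 3 differed by more than 2-fold in −log10 q, and all 3 had the larger value in replicate 2. At 2815028 the values were 5.02 in replicate 1 and 12.3 in replicate 2, a log2 ratio of -1.29. At 1142840 they were 5.59 in replicate 1 and 11.9 in replicate 2 (-1.09). The last was the left interval of replicate 1 at the divided region near 2863640, with 17.5 in replicate 1 and 36.5 in replicate 2 (-1.06). All 3 lay in the first 3 Mb.

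In the other direction the pairs were closer. At 3683002 the −log10 q was 17.6 in replicate 1 and 9.49 in replicate 2, a log2 ratio of 0.89. At 8424910, near the missing interval, it was 26.7 in replicate 1 and 15.1 in replicate 2 (0.83). The pair at 793637 had 20.1 in replicate 1, against 12.05 in replicate 2 (0.74). No pair of this set reached a 2-fold excess in replicate 1.

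Of the 707 combined peaks, 352 were found in both replicates, which is 49.8% (46.04 to 53.5) where the whole list had 46.4%. A further 53 were found in replicate 1 alone, or 7.50%, where the whole list had 7.39%. Another 110 were found in replicate 2 alone, or 15.6%, where the whole list had 14.1%. The remaining 192, or 27.2% (23.9 to 30.6), were found in neither, where the whole list had 32.1%. The file name alone says that the combined list joins the replicates, so this overlap is not independent evidence for its peaks.

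Combined peaks in both replicates were the strong and wide ones. Their median −log10 q was 16.8 and their median width 388.5 bp. Peaks in 1 replicate had 6.73 and 275 bp, and peaks in neither had 4.42 and 214 bp. Ordered by strength, the first 210 combined peaks of the window were all found in both replicates. With the window split into 5 quintiles of strength, this held for all 142 peaks of the strongest, 66 of 142 in the middle one and 2 of 141 in the weakest.

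**Figure D3:**
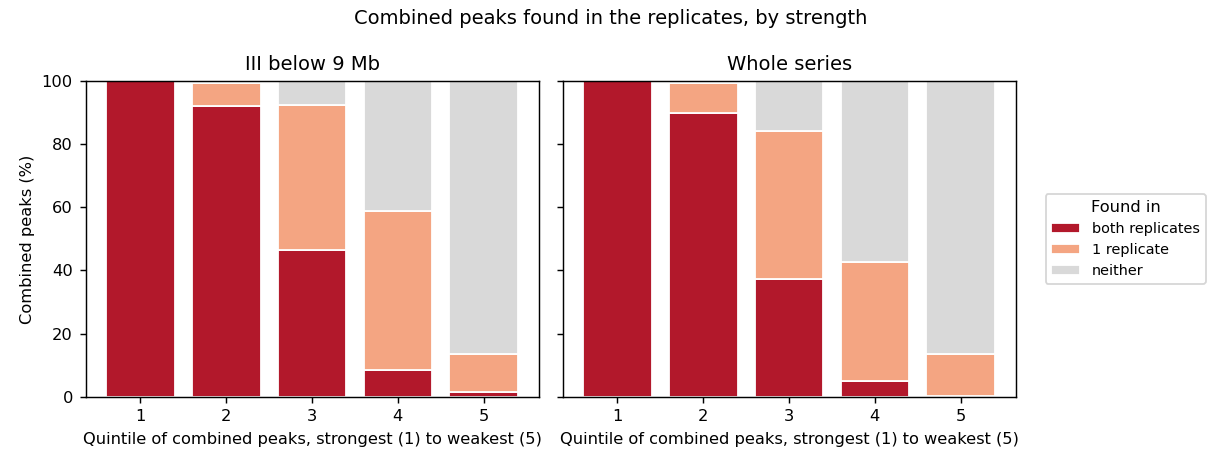
Percentage of combined peaks found in both replicates, in 1 replicate and in neither, for quintiles of the list from the strongest to the weakest; III below 9 Mb is on the left and the whole series, which includes it, on the right. In quintile 4, 41.1% of the window's peaks were in neither replicate and 57.4% of those of the series. Quintiles were cut within each set, so their strengths differ: quintile 4 spans a −log10 q of 4.90 to 6.95 in the window and 4.64 to 6.61 in the series.

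The strongest combined peak missing from replicate 1, from 5591763 to 5592083, had a −log10 q of 13.9 in the combined list and 7.54 in replicate 2. The next was a peak of 1015 bp from 7723032 to 7724046, with 13.9 in the combined list and 6.14 in replicate 2. It was followed by the peak from 5308229 to 5308616, with 13.5 in the combined list and 7.30 in replicate 2. These 3 were therefore well above the combined median, and each overlapped a moderate peak in replicate 2 alone. Signal below the threshold in replicate 1 was not tested.

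The strongest combined peak missing from replicate 2, from 5449911 to 5450242, had a −log10 q of 11.9 in the combined list and 5.26 in replicate 1. The peak from 8126914 to 8127691 had 11.7 in the combined list and 9.35 in replicate 1. The peak from 6159121 to 6159475 had 10.6 in the combined list and 11.2 in replicate 1, with an interval of 355 bp in the combined list and a wider one of 808 bp in replicate 1. Replicate 2 had a peak under the left end of that wider interval, from 6158621 to 6158879 with 7.16, which the combined interval did not reach. This was the only 1 of the 163 combined peaks found in 1 replicate whose replicate interval overlapped a peak of the other replicate. Among peaks found in neither replicate, the strongest ran from 8511809 to 8512636 with 10.8 in the combined list. The next were at 5504154 with 8.66 and at 5688235 with 8.53.

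The combined value usually exceeded either replicate. At the 352 peaks found in both, the combined −log10 q was a median of 1.68 times that of the stronger replicate and 0.930 times the sum of the replicate values (quartiles 0.850 and 1.02). Over the 2469 such peaks of the series the medians were 1.72 and 0.961. Combined intervals were wider than both replicate intervals at 265 of the 352 peaks, or 75.3%, where the whole series had 75.6%.

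Over the series, the combined value was below a replicate value at 15 of the 2469 peaks found in both replicates, or 0.608%. In the window it was below at 4 of 352, or 1.14%. The largest shortfall was from 931225 to 931822, with a −log10 q of 5.02 in the combined list, 7.41 in replicate 1 and 12.6 in replicate 2. The interval had the same start and end in the combined list as in replicate 2. At 3389423 the values were 8.09 in the combined list, 5.55 in replicate 1 and 9.22 in replicate 2. At 1299608 they were 4.61 in the combined list, 3.73 in replicate 1 and 4.76 in replicate 2. At 5202658 they were 12.06 in the combined list and 12.08 in replicate 1, which are nearly equal. Of the 163 combined peaks found in 1 replicate, 10 were below the value of that replicate. The peak from 6159121 described above was among these, with 10.6 in the combined list and 11.2 in replicate 1.

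NFYA-1 peaks were more frequent per Mb in the window than on the autosomes I, II, IV and V. The window held 78.8 combined peaks per Mb, against 50.6 on those 4 chromosomes, a ratio of 1.56 (1.43 to 1.69). Those chromosomes were taken whole, with both arms, whereas the window lacks the right arm. Between 4 and 9 Mb, III had 91.8 per Mb, and I, II, IV and V had 65.2, 65.4, 54.8 and 42.2. Below 4 Mb, III had 62.4, and the others in that order 55.1, 38.5, 48.9 and 38.3. Each replicate list gave a ratio of 1.71. Relative to the 89.9 combined peaks per Mb on the rest of III, from 9 Mb on, the ratio was 0.876 (0.776 to 0.990). The replicate lists gave 0.791 (replicate 1) and 0.785 (replicate 2). The window thus lay between the other autosomes and the right part of III in all 3 lists. With 9.01% of the genome span, it held 13.3% of the combined peaks, 14.1% of the replicate 1 peaks and 14.4% of the replicate 2 peaks.

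Among strong peaks the share was similar. The window held 76 of the 500 strongest combined peaks (15.2%, 12.2 to 18.7) and 14 of the 100 strongest. In replicate 1 it was 80 of 500 and in replicate 2 it was 77 of 500. The combined peaks covered 2.95% of the window's span, against 2.14% on I, II, IV and V. Their median width was 327 bp in the window, 332 bp on III from 9 Mb on, 351 bp on I, II, IV and V and 399 bp on X.

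Peak number varied along the window more than 2-fold. In the 9 bins of 1 Mb, from left to right, the combined list held 52, 42, 61, 93, 109, 88, 73, 82 and 107 peaks. Replicate 1 held 28, 23, 38, 59, 73, 44, 37, 45 and 62, and replicate 2 held 35, 31, 41, 64, 75, 49, 44, 63 and 75. In each list bin 2 was the lowest, bin 5 was the highest or shared the highest count, and bin 7 was lower than both bins beside it. The mean per bin was 78.6 ± 23.5 combined peaks (SD, 9 bins), against 50.8 ± 14.9 in the 67 bins of I, II, IV and V. Of the 9 bins, 8 lay above the mean of those chromosomes and 3 above their highest bin, which held 91.

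**Figure D4:**
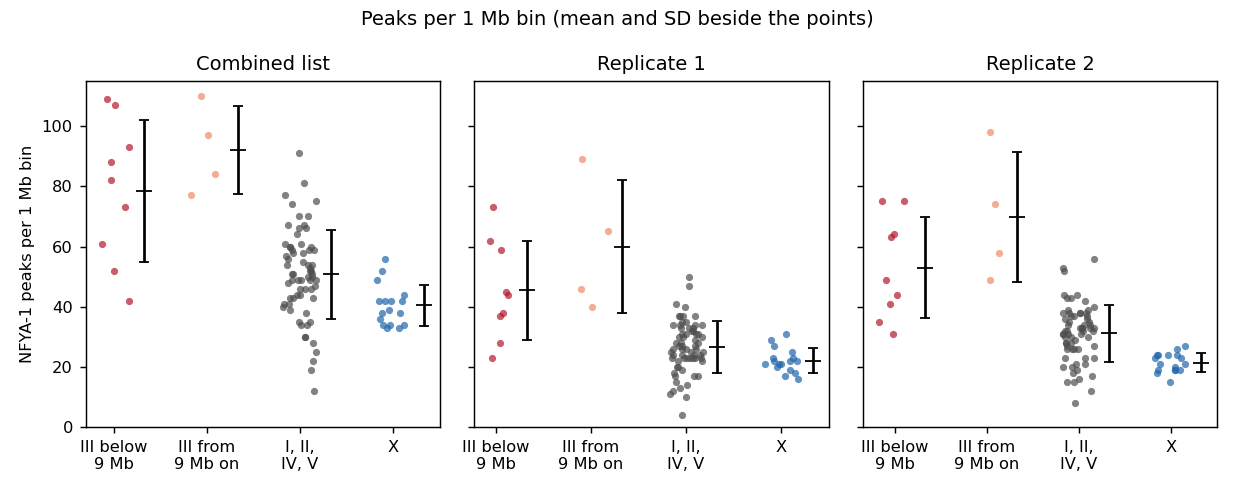
NFYA-1 peaks per full 1 Mb bin in each list, by chromosome group, with the mean and SD beside the points (9, 4, 67 and 17 bins from left to right). The window's bins range from 42 to 109 combined peaks and overlap those of I, II, IV and V, which range from 12 to 91.

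The left arm had fewer peaks per Mb than the rest of the window, but not evenly so. Its 1 Mb bins from 1, 1000001 and 2000001 held 52, 42 and 61 combined peaks. The bin from 3000001 held 93, more than the 88, 73 and 82 of the bins from 5000001, 6000001 and 7000001. It held fewer than the 109 and 107 of the bins from 4000001 and 8000001. This order was the same in replicate 1, where it held 59 peaks, and in replicate 2, where it held 64. Below 4 Mb there were 62.4 combined peaks per Mb, against 91.8 between 4 and 9 Mb, a ratio of 0.680 (0.580 to 0.795). The same ratio came to 0.713 in replicate 1 and 0.703 in replicate 2. At the same positions on other autosomes the combined ratio was 0.844 on I, 0.589 on II, 0.892 on IV and 0.908 on V. In the combined list the interval for II also lay below 1, and those for I, IV and V reached past 1. In replicate 1 those for I, at 0.764 (0.584 to 0.993), and for II lay below 1. In replicate 2 only that for II did. The ratio on V was above 1 in both replicates, at 1.02 in replicate 1 and 1.11 in replicate 2.

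The fewer peaks of the arm had median strengths at or above those further right. The median combined −log10 q was 8.63 below 4 Mb, against 8.38 between 4 and 9 Mb, and the median width was 347.5 bp, against 319 bp. In replicate 1 the medians of −log10 q were 8.23 below 4 Mb and 7.29 between 4 and 9 Mb, and in replicate 2 they were 7.87 and 6.45. The share of combined peaks found in both replicates was 51.2% below 4 Mb and 49.02% between 4 and 9 Mb. By bins it ran from 39.7% in bin 7 to 57.8% in bin 5.

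On a finer scale every one of the 90 sections of 100 kb held at least 1 combined peak. The median section held 7 peaks (quartiles 5 and 10). On I, II, IV and V the median was 5, and 28 of 684 sections were empty. In the window 7 sections held 15 or more peaks, against 3 on I, II, IV and V. The rest of III, from 9 Mb on, resembled the window, with a median of 9 peaks, no empty section and 5 of 47 sections with 15 or more.

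The densest section of the window ran from 7700001 to 7800000 with 20 combined peaks. No section of the genome held more, and 1 other held as many. Replicate 1 had 10 peaks in the section and replicate 2 had 14, and 9 of the 20 combined peaks were found in both. Its peaks were of moderate strength, with a median −log10 q of 7.57 and a highest of 22.7.

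The 20 peaks formed 2 groups. The left group held 13 peaks from 7708894 to 7736723, a stretch of 27.8 kb, and the right group 7 peaks from 7765914 to 7792493. Between them lay 29.2 kb with no combined peak, where replicate 2 alone had an interval wholly inside, from 7738388, with a −log10 q of 3.57. A replicate 1 interval from 7736466 to 7736919 reached into its left end. The left group included intervals of 1212 bp, found in neither replicate, and of 1015 bp, found in replicate 2 alone. The strongest of the left group, from 7729252 to 7730196, had 21.6 in the combined list, 12.02 in replicate 1 and 11.6 in replicate 2. The strongest of the right group, from 7784264 to 7784627, had 22.7 in the combined list, 8.80 in replicate 1 and 11.3 in replicate 2. Whether the section holds 1 of the Hox genes in build WS180 was not analysed here.

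Next came the section from 4500001 to 4600000 with 17 combined peaks, and then 3 sections with 16 each, from 3600001, 4300001 and 8800001. The last of these held the strong pair described above, and 10 of its 16 peaks were found in both replicates. The section from 4300001 had 9 of 16 in both, and that from 3600001 had 6 of 16. The sparsest sections were those from 1300001 and from 2200001, with 1 combined peak each, and 5 sections held 2.

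The longest stretches without a combined peak were all in the first 2 Mb. They ran from 1300473 to 1418687 (118215 bp), from 235464 to 343645 (108182 bp) and from 1681479 to 1777505 (96027 bp). Neither replicate list had a peak wholly inside any of the 3. A replicate 2 interval from 235140 to 235615 reached into the left end of the stretch from 235464. The last of them lay to the right of the strongest combined peak.

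Neighbouring combined peaks in the window were a median of 7085 bp apart (quartiles 2431 and 16788 bp), against 9782 bp in the rest of the series. The shortest distance was 210 bp. Of 706 neighbouring pairs, 84 were under 1000 bp apart, which is 11.9% (9.60 to 14.5), against 10.4% in the rest of the series. In replicate 1 it was 8.09%, against 6.02%, and in replicate 2 7.14%, against 6.49%. The intervals of the window contained the values of the rest, so a difference was not detectable at these numbers. The distances differed more in the upper range, where 22 of the 706 exceeded 50 kb, against 431 of 4608. This was not particular to the window. On III from 9 Mb on, 9 of 428 exceeded 50 kb and the median distance was 6093 bp.

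**Figure D5:**
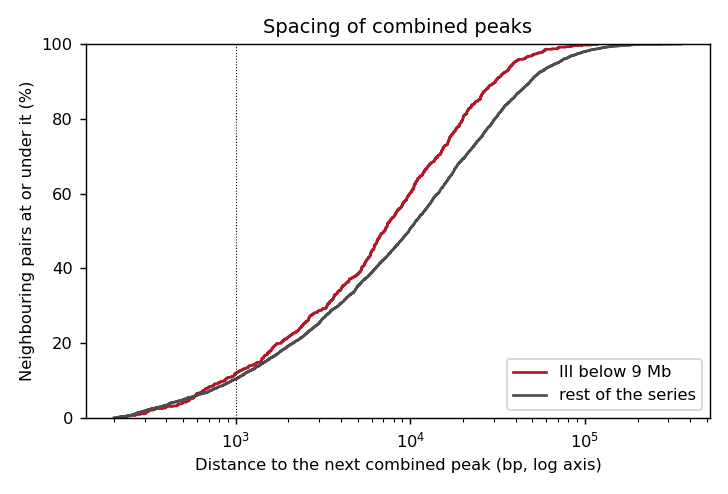
Cumulative percentage of neighbouring combined peaks against the distance between them in bp (log axis), for III below 9 Mb (706 pairs) and the rest of the series (4608 pairs). The dotted line marks 1000 bp, where the curves lie at 11.9% and 10.4%; above it the curve of the window lies to the left.

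Over the 84 close pairs the stronger member had a median −log10 q of 15.1 and the weaker 6.57, where the 565 close pairs of the whole series had 15.2 and 5.38. Both replicates held both members of 30 pairs, or 35.7%, where the whole series had 24.2%. A member that neither replicate held was present in 40 pairs, or 47.6%, where the whole series had 53.1%. A single replicate peak spanned both members of only 1 pair, where the whole series had 5 of 565. Linked at under 1000 bp, the 707 peaks made 552 single peaks, 60 runs of 2, 9 runs of 3 and 2 runs of 4. The second run of 4, from 8124294 to 8127691, had combined values of 15.2, 10.6, 4.90 and 11.7. The members at 15.2 and 10.6 were found in both replicates, that at 4.90 in neither and that at 11.7 in replicate 1 alone.

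Very narrow intervals appeared in the combined list. In the window 22 of 707 combined peaks were under 100 bp wide, which is 3.11% (1.96 to 4.67), against 1.44% on I, II, IV and V and 1.58% over the whole list. The narrowest, at 2393847, was 2 bp wide with a −log10 q of 3.57, and the next were 3 and 5 bp wide. Of the 22, 20 were found in neither replicate and none in both, where the whole series had 81 of 84 in neither. All had a −log10 q of 5.82 or less. Replicate 1 had no peak under 100 bp in the window and replicate 2 had 1.

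At the edge of the window, the last combined peak inside 9 Mb ran from 8984843 to 8985323 with a −log10 q of 14.4, and was found in both replicates. The first one outside ran from 9006972 to 9007442 with 8.05, and was found in replicate 1 alone.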

How the data were processed

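Per the labels' protocols, the chromatin was fixed with 2% formaldehyde and sheared, 10% was set aside as input, and the fusion protein was pulled down through GFP. Per the file headers and the source column, the authors called peaks with PeakSeq on the WormBase WS180 build. Each of the 3 deposited lists gives a q-value (a corrected p-value) per peak and no other measurement. How reads were aligned, which PeakSeq version and threshold were used, what the inputs were used for and how the combined list was made is not given in the sources used here.

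From these lists −log10 q, widths, midpoints, overlaps, distances and densities were computed. A peak was matched to the strongest peak it overlapped in the other list, so that 1 peak could enter more than 1 match. The length behind a density runs between the outermost peaks of each chromosome in any list. Ratios of densities carry exact Clopper-Pearson intervals conditional on the sum of counts.

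The members and the rules were chosen with earlier results of these data known. Named were the 10 strongest combined peaks that both replicates held, leading replicate peaks without a combined peak, the 3 widest, the 3 strongest in 1 replicate or neither, the 3 pairs most in favour of each replicate, the densest and sparsest sections, the 3 longest gaps, the longest runs and the boundary peaks. Ties were named together where few. The runs of 3 beside the strongest peaks, the peaks below a replicate value, the very narrow intervals and the groups within the densest section were picked after their values were seen. The available gene table is for assembly WBcel235, another build, and was not used for positions. Functions were tested on simulated data. The work used SciPy 1.17.1, pandas 2.3.3 and NumPy 2.4.6 under Python 3.11.15, with figures from matplotlib 3.10.9.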

Additional observations from a re-analysis of the deposited data

How the results depend on the processing

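For 10 results 53 alternatives were run, 7 of them chosen after seeing the data. No ratio of densities whose interval excluded 1 turned its direction. Of the alternatives, 33 stayed within the interval of the reported value and 20 moved outside it; the cause was not tested beyond what the construction of each alternative fixes. With the stronger 50% of each list, 90.2% of replicate 1 peaks were in replicate 2 and 80.3% of replicate 2 peaks in replicate 1. In that setting both replicates held 51.2% of the combined peaks, and 87.0% with the stronger 50% of the combined list and the whole replicate lists, an alternative chosen after seeing the data. The log2 ratio of strength in matched pairs, with a reported median of -0.04 and an interval that includes 0, had a median of 0.01 with the stronger 50% of each list. Each replicate list alone gave 45.6 and 53.2 peaks per Mb, as these lists are shorter. The ratio to I, II, IV and V was 1.71 in each, the median −log10 q 7.52 and 6.74, and the share of close neighbours 8.09% and 7.14%. The stronger 50% of the combined list gave 41.1 peaks per Mb and a ratio of 0.772 to III from 9 Mb on. Combined peaks in both replicates gave 39.2 per Mb, ratios of 1.72 to the other autosomes and 0.773 to III from 9 Mb on, a median −log10 q of 16.8 and 8.55% close neighbours. With 500 bp as the distance, 4.25% were close. With the arm ended at 3 Mb its ratio was 0.566. The other overlap rules, an 8 Mb boundary, interval ends, full 1 Mb bins and intervals of at least 100 bp stayed within the intervals.

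No paired analysis was possible because each peak has only a q-value, and input values were not used here. Depth is unknown, so a weak peak missing from a list cannot be called absent.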
